A study of Mus musculus with 30 samples.

Results

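The T cell receptor complex and its coreceptors are described here through 10 genes, Cd3d, Cd3e, Cd3g, Cd247, Trac, Trbc1, Trbc2, Cd4, Cd8a and Cd8b1, chosen by name out of 55401 genes and matched by identifier, and all 10 were found. T cells recognise antigen through a receptor assembled from several kinds of chain. The alpha and beta chains bind peptide held by a major histocompatibility complex (MHC) molecule but have almost no cytoplasmic tail, so the signal is carried by the CD3 gamma, delta and epsilon chains and by CD247 (the zeta chain), whose tails hold tyrosine motifs phosphorylated by the kinase Lck. The coreceptors CD4 and CD8 bring Lck to the complex while they bind MHC class II or class I, and in mature T cells they mark the helper and the cytotoxic lineage. Most of these genes are used as T cell markers in tumours, although Cd247 is also made by natural killer (NK) cells, and Cd4 and Cd8a by subsets of mouse dendritic cells.

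The genes were measured by RNA-seq in 30 libraries from mouse tumours of 4T1, a breast cancer line derived from a mouse; its cells expressed the fluorescent marker GFP. Mice labelled as wild-type were given C269, an antibody against extracellular nicotinamide phosphoribosyltransferase (eNAMPT, a cytokine-like form of an NAD-making enzyme), in doses of 2.5 mg/kg over 1 month with 2 doses weekly, or a control IgG1 (CTRL). Sorted 4T1 cells, CD8+ T cells and CD4+ T cells taken with magnetic beads gave 5 libraries each under C269 and under CTRL, that is 6 groups of 5. The T cells were isolated as CD4+ or CD8+, so the Cd4, Cd8a and Cd8b1 differences between the populations check the labels and are not a separate finding. Libraries are called by the number at the head of their column: 6 to 10 are 4T1 C269 and 1 to 5 4T1 CTRL, 26 to 30 are CD8 C269 and 21 to 25 CD8 CTRL, 16 to 20 are CD4 C269 and 11 to 15 CD4 CTRL. A magnetic separation enriches cells and does not purify them completely. Nothing in the labels says that samples of a group came from separate mice, and the p-values below therefore describe the spread among these libraries, which may be technical.

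Libraries held between 2178682 and 5208420 counts, and levels are CPM, the counts of a gene scaled to a common library total of gene counts. Libraries 9 and 10 stood apart: they held 4408 and 5348 CPM of Muc2, an intestinal mucin, against at most 10.6 CPM elsewhere, at most 0.449 CPM of Xist, the X-inactivation transcript, against at least 528 CPM elsewhere, and 75.2 and 84.2 CPM of the Y-linked Ddx3y, which had no count elsewhere. The 4T1 tests of C269 that are reported below are therefore also given without them. A further library, CD4 CTRL library 14, had the lowest summed level of the 10 genes among the T cell libraries, 1186 CPM, and the highest summed level of the 8 macrophage and monocyte genes among them, 3772 CPM. The sum of 6 epithelial genes, which mark the lineage of 4T1, was 574, 364, 1599, 5649 and 5442 CPM in 4T1 C269, where libraries 9 and 10 are the highest, and 226 to 577 CPM in 4T1 CTRL, against 35.9 to 105 CPM in CD8 CTRL and 213 to 330.1 CPM in CD4 CTRL, so the 4T1 CTRL libraries overlapped the CD4 CTRL ones. The 4T1 CTRL libraries also held 4051 to 13745 CPM of 6 neutrophil genes, and "4T1" is used here as the name the labels give. The level of the 10 genes is a share of each library's RNA, and fewer T cells and less RNA per T cell cannot be told apart in it.

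The signalling chains Cd3d, Cd3e, Cd3g and Cd247 had counts in every library of both T cell populations. Cd3e, the epsilon chain, which pairs with both gamma and delta, had 490.5, 394, 430.1, 327 and 410.2 CPM in CD8 C269 libraries and 376, 409, 439.9, 456 and 363 CPM in CD8 CTRL libraries. In the CD4 populations it had 212, 237, 173, 249 and 208 CPM under C269 and 179.8, 214, 160.2, 122 and 209 CPM under CTRL. Every CD8 library lay above every CD4 library, and within each population the C269 and CTRL libraries overlapped. Cd3d, the delta chain, had 790.2, 778, 656, 829 and 649.9 CPM in CD8 C269 and 671, 627, 877, 638 and 584 CPM in CD8 CTRL. The same gene had 391, 324, 255, 329 and 189 CPM in CD4 C269 and 391.9, 378, 322, 175 and 340.1 CPM in CD4 CTRL, again below every CD8 library. Cd3g, the gamma chain, spread most among the CD8 C269 libraries, at 289, 452, 177, 237 and 136 CPM, against 182 to 287 CPM in CD8 CTRL. Cd247, the zeta chain that dimerises with itself, was the CD3-complex gene with the least separation of populations, at 205 ± 38.3 CPM in CD8 C269, 224 ± 26.3 CPM in CD8 CTRL, 172 ± 50.9 CPM in CD4 C269 and 178 ± 68.2 CPM in CD4 CTRL (mean ± SD, n = 5 each). CD8 and CD4 libraries overlapped for it under both treatments.

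**Figure D1:**
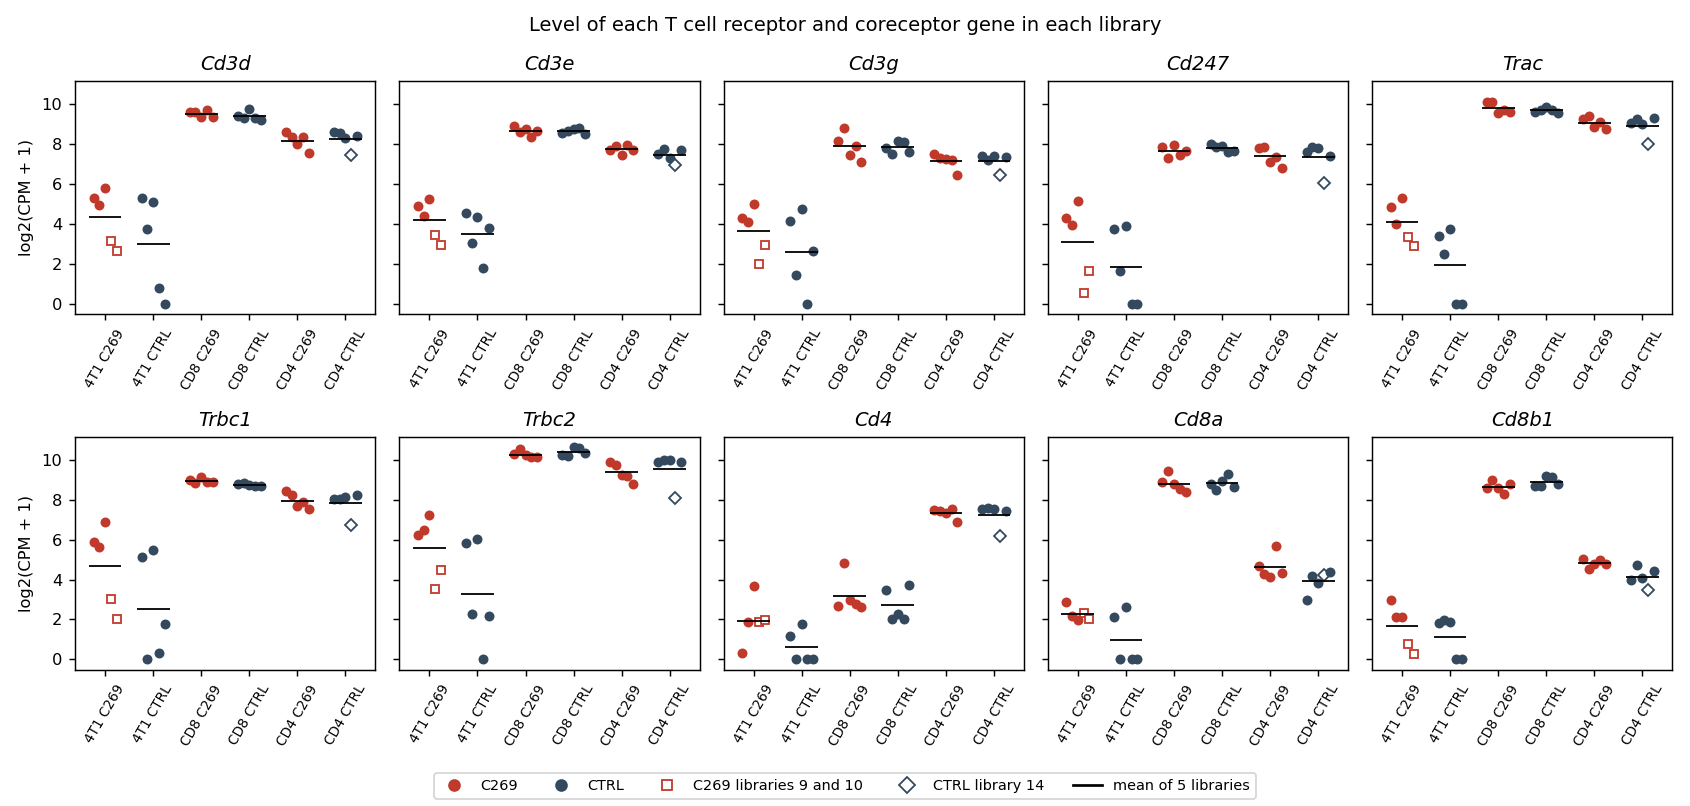
Level of each of the 10 genes, as log2(CPM + 1), in every library of the 6 groups, with the mean of the 5 plotted values as a bar; open squares are 4T1 C269 libraries 9 and 10 and open diamonds CD4 CTRL library 14. Every T cell library sits above every 4T1 library for the CD3 and receptor chains, except for Trbc1. There 4T1 C269 library 8 (116 CPM) was above CD4 CTRL library 14 (106.0 CPM). The coreceptors separate CD8 from CD4 libraries.

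Cd3d, Cd3g and Cd3e lie together on chromosome 9, where Cd3g (chr9:44969572-44980431, minus strand) and Cd3d (chr9:44981786-44987339, plus strand) run apart from starts 1355 bases from each other (GRCm38, GENCODE M21). Their promoters are shown because these neighbours start so close together and were expressed together in every T cell library. The sequences are RefSeq's, on GRCm38.p6, and run from before the start to shortly after it; of the 10 genes, Cd3d, Cd3e, Cd3g, Cd247 and Cd8a were matched by symbol. Capitals mark GGAA, the core of ETS factor sites, and CAGGTG, an E-box bound by E proteins, on either strand. In the letters below, TTCC and CACCTG are these motifs on the other strand, and no 2 of the marked motifs overlap.
Cd3d, chr9:44981536-44981835, plus strand: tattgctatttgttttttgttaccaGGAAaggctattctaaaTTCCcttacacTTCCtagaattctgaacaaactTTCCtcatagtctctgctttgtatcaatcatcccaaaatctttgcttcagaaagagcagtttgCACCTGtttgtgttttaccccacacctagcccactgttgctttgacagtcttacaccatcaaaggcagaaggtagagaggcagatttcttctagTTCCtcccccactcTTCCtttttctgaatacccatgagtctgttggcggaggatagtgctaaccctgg
Cd3g, chr9:44980382-44980681, minus strand: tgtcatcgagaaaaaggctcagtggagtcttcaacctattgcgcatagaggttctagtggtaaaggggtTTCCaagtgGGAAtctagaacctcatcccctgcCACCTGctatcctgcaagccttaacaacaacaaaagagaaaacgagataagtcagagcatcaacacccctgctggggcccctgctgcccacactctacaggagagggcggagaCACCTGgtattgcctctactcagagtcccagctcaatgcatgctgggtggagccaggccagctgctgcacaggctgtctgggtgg
Cd3d held 6 GGAA and 1 CAGGTG, and Cd3g held 2 of each. CAGGTG was present in 20.2% of all 32851 promoters of that length, and GGAA in 96.0%. Among the other 3 promoters, those of Cd3e and Cd247 held 1 CAGGTG each and that of Cd8a held none. TGTGGT, a RUNX core, was in none of the 5 windows and in 16.8% of all promoters, and TATAAA was also in none, against 13.6% of all promoters. A match is a string of letters and was not tested as a binding site.

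The antigen-binding chains were measured through their constant regions, which every receptor shares whatever its variable part. Trac, the constant region of the alpha chain (chromosome 14), had 1128, 1118, 765, 846 and 795 CPM in CD8 C269 libraries and 776, 843, 937, 836 and 764 CPM in CD8 CTRL libraries. It had 609, 678, 466, 555 and 431 CPM in CD4 C269 and 530.2, 605, 522, 259 and 632 CPM in CD4 CTRL, where library 14 was the low one. Trbc2, a constant region of the beta chain, had 1244, 1474, 1221, 1117 and 1148 CPM in CD8 C269 and 1229.9, 1181, 1594, 1525 and 1304 CPM in CD8 CTRL. These were above all CD4 libraries, which ranged over 439 to 946 CPM under C269 and 273 to 1013 CPM under CTRL. Trbc1, the other beta constant region, had 512, 460.2, 569, 476 and 471 CPM in CD8 C269 and 446, 457, 427, 419 and 411 CPM in CD8 CTRL. All 5 CD8 C269 libraries exceeded all 5 CD8 CTRL libraries for Trbc1, by a margin of 460.2 over 457.5 CPM at the closest. No other gene of the 10 had C269 and CTRL libraries without overlap, and for Trbc1 this held in CD8 alone: its groups overlapped in CD4 and in 4T1 libraries. Of all tested genes, 1.24% did not overlap between C269 and CTRL in CD8, 0.71% in CD4 and 2.3% in 4T1 libraries, and 0.00914% were called in CD8.

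Trbc1 (chr6:41538218-41539881) and Trbc2 (chr6:41546730-41548352), both on the plus strand, encode nearly the same protein part, which limits how reads can be split between them. Over 518 coding bases they differed at 23, an identity of 95.6%, and the first 259 bases were identical. The coding ends of both are shown because 22 of the 23 differences fall there, and capitals mark the bases that differ (bases 363 to 518 of the coding sequence, GENCODE M21).
Trbc1: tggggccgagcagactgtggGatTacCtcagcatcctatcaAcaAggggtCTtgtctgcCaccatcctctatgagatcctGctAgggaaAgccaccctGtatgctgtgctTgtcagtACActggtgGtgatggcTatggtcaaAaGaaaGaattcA
Trbc2: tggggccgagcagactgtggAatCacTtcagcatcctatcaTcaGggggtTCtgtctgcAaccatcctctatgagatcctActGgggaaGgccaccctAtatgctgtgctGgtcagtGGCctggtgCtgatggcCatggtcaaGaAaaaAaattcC
Reads from the first stretch cannot be assigned to either gene by sequence, and how such reads were counted is not given in the sources used here. With that limit, Trbc1 made up 29.1, 23.8, 31.8, 29.9 and 29.1% of Trbc1 and Trbc2 counts in CD8 C269 and 26.6, 27.9, 21.1, 21.5 and 23.98% in CD8 CTRL. In the CD4 libraries its share was 26.99, 25.4, 25.3, 28.9 and 29.4% under C269 and 21.99, 20.7, 21.6, 28.01 and 24.3% under CTRL. The share was thus mostly higher under C269, with overlap in both populations: library 27 of CD8 C269 lay among the CTRL libraries, and library 14 of CD4 CTRL among the C269 libraries.

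Per kilobase of exon, Trbc2 led in all 6 groups, at 1793 ± 203 CPM per kilobase in CD8 C269, 1975 ± 264 in CD8 CTRL, 998 ± 306 in CD4 C269 and 1206 ± 457 in CD4 CTRL (mean ± SD, n = 5 each). The length is that of all annotated exons of a gene together. Comparing genes in this way assumes that reads cover these exons evenly, which was not tested. Trac, Trbc1 and Cd3d followed in that order in each T cell group. In CD8 CTRL, Trac had 889 ± 73.6, Trbc1 577 ± 25.6 and Cd3d 374 ± 63.2 CPM per kilobase, with no overlap between neighbours among these leading genes. Cd3d and Cd8b1, next to each other there, did overlap. Cd247 was the lowest of the CD3-complex genes, at 42.1 ± 4.93 CPM per kilobase in CD8 CTRL, below Cd3e at 100.2 ± 9.77 and Cd3g at 71.5 ± 14.6. In the CD4 libraries, Cd3e, Cd3g and Cd4 held neighbouring places and overlapped each other.

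The coreceptors followed the labelled populations. Cd8a, the chain present in both forms of CD8, had 476, 685, 436, 366 and 335 CPM in CD8 C269 and 445, 357, 494, 619 and 395 CPM in CD8 CTRL. Cd8b1, the chain specific to the alpha-beta form found on conventional cytotoxic T cells, had 391, 512, 385, 316 and 442 CPM in CD8 C269 and 412, 418, 576, 565 and 437 CPM in CD8 CTRL. Groups overlapped for both, and Cd8b1 made up 42.8 to 56.9% of the counts of the pair in CD8 C269 and 47.7 to 54.0% in CD8 CTRL. Cd4 had 181, 173, 163, 184 and 116 CPM in CD4 C269 and 182, 192, 185, 71.3 and 172 CPM in CD4 CTRL. Library 14 again stood below the other CTRL libraries.

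Each T cell population held a small level of the other lineage's coreceptor. Cd4 had 5.32, 27.9, 6.73, 5.93 and 5.22 CPM in CD8 C269 libraries and 10.2, 3.11, 3.89, 3.08 and 12.2 CPM in CD8 CTRL libraries, and library 27 was the high one. Its mean in CD8 libraries was 6.26% of that in CD4 libraries under C269 and 4.05% under CTRL, but 3.55% under C269 without library 27. In the opposite direction, Cd8a had 24.2, 18.1, 16.2, 50.6 and 18.9 CPM in CD4 C269 libraries and 6.88, 16.9, 13.3, 18.004 and 19.7 CPM in CD4 CTRL libraries. Cd8b1 had 31.9, 22.01, 26.3, 30.2 and 26.2 CPM in CD4 C269 and 15.02, 25.7, 16.2, 10.002 and 20.4 CPM in CD4 CTRL. For Cd8b1, 4 of the 5 C269 libraries lay above every CTRL library. For Cd8a 2 of them did, and library 19 was the highest. The groups overlapped for both chains. Of all coreceptor counts, Cd4 made up 76.3, 81.2, 79.3, 69.4 and 72.0% in CD4 C269 and 89.3, 81.8, 86.2, 71.8 and 81.1% in CD4 CTRL, against 0.609 to 2.28% in CD8 C269 and 0.259 to 1.44% in CD8 CTRL. In a single library such a share carries counting error, as in library 27, where it was 2.28% (95% exact binomial interval 1.73% to 2.95%, 56 of 2455 counts); these intervals cover counting error only.

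**Figure D2:**
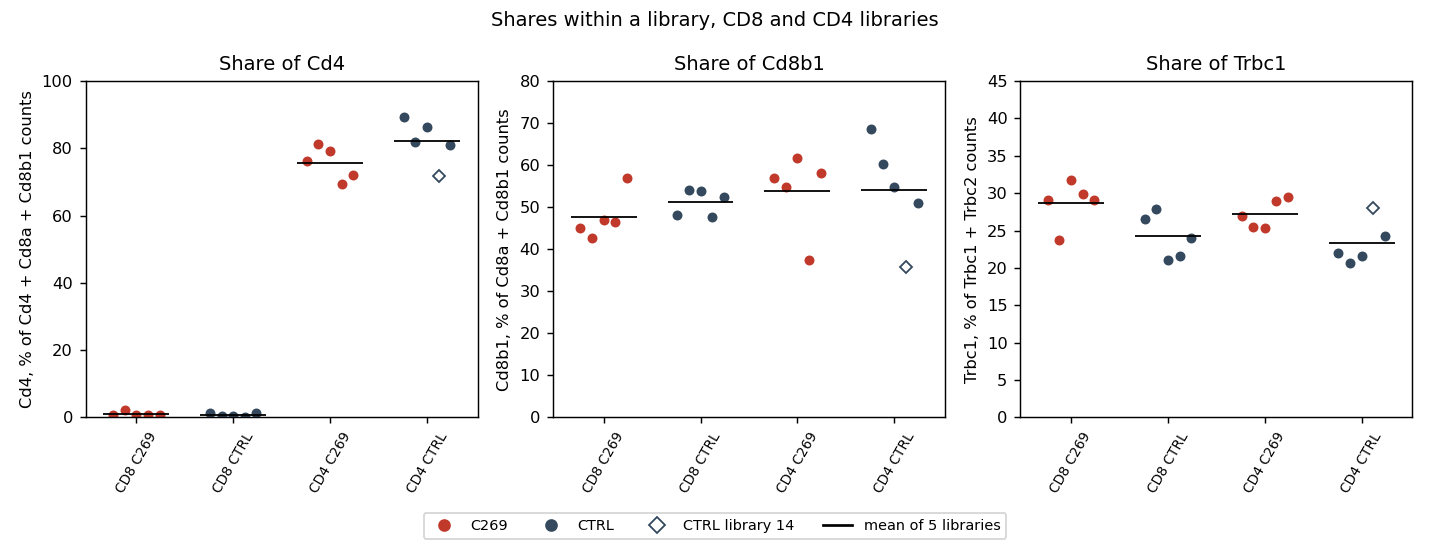
Shares within a library, in percent of counts, for CD8 and CD4 libraries: Cd4 among the 3 coreceptor genes, Cd8b1 among the 2 CD8 chains, and Trbc1 among the 2 beta constant regions. Points are libraries, bars are the mean of 5, and the open diamond is CD4 CTRL library 14; Cd4 makes up at least 69.4% of coreceptor counts in CD4 libraries and at most 2.28% in CD8 libraries.

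The CD3 and receptor chains all had higher mean levels in CD8 than in CD4 libraries, with smaller differences than the coreceptors. In the CTRL libraries, Cd3e averaged 409 ± 39.8 CPM in CD8 and 177 ± 38.0 CPM in CD4, and Cd3d 679.5 ± 115 CPM in CD8 and 321 ± 86.5 CPM in CD4 (SD, n = 5 each). In the fit of all 30 libraries with edgeR's quasi-likelihood test, 4 of the 10 genes passed an adjusted p of 0.05 in the CTRL libraries, where 7.01% of tested genes did (1.76% higher and 5.25% lower). Cd8a was higher in CD8 by 5.02 (SE 0.55) on the log2 scale and Cd8b1 by 4.85 (SE 0.53), Cd4 was lower with -4.54 (SE 0.66), and Cd3e was higher by 1.28 (SE 0.38), or 2.43-fold, adjusted p 0.0352. The other 6 had log2 fold changes from 0.40 for Cd247 to 1.15 for Cd3d and did not pass, and no CD8 CTRL library overlapped a CD4 CTRL library for 9 of the 10 genes, where 15.9% of tested genes did not overlap. The coreceptor values follow from the isolation as CD4+ or CD8+ and check the labels, also within these counts. The Cd3e call was lost whichever CD8 or CD4 library was left out, with adjusted p from 0.0519 to 0.125 over these 10 fits. With the compared groups alone in the fit, 9 of the 10 genes passed in the CTRL libraries, all but Cd247, where 23.3% of tested genes did, with adjusted p of 0.000616 for Cd3d, 0.0125 for Cd3g, 0.0100 for Trac and 0.0470 for Trbc2.

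In the C269 libraries, 3 of the 10 genes passed, all of them coreceptors, where 7.98% of tested genes did (2.31% higher and 5.67% lower). Cd8a was higher in CD8 by 4.26 (SE 0.53), Cd8b1 was higher by 3.98 (SE 0.51), and Cd4 was lower with -3.96 (SE 0.64). Cd3e had 1.01 (SE 0.38), adjusted p 0.0956 by edgeR's quasi-likelihood test, and Cd3d 1.39 (SE 0.63), adjusted p 0.193. Without libraries 9 and 10 Cd3e passed as well, with adjusted p 0.0282, as it did with DESeq2, with adjusted p 0.0464. With the compared groups alone 8 of the 10 passed, all but Cd3g and Cd247, where 7.67% of tested genes did. CD8 C269 and CD4 C269 libraries did not overlap for 8 of the 10 genes, against 9.4% of tested genes. Of 20 genes of receptor-proximal signalling, 18 had a positive log2 fold change in the CTRL libraries (median 0.67, against -0.015 over all tested genes), and past the threshold 1 gene rose and 1 fell. Themis, a T cell adaptor, rose by 1.67 (SE 0.42), and Trat1, which binds the receptor complex, fell with -3.19 (SE 0.59). Among the 12 T lineage transcription factors, 2 fell and none rose: Zbtb7b, the helper lineage factor ThPOK, had -1.61 (SE 0.40) and Runx1 -0.92 (SE 0.24). In the C269 libraries the signalling list had 17 of 20 positive values (median 0.48), none rose and Trat1 fell with -2.89 (SE 0.59). Of 9 further T cell surface genes none was called in the CTRL libraries, with a median of 0.77. Beside these, 4 of 7 tested NK cell genes had a positive and 3 a negative value in the CTRL libraries (median 0.45). The calls were 3, all higher in CD8: Eomes, a transcription factor of NK and cytotoxic T cells, by 4.54 (SE 0.93), and the receptors Klre1 by 4.91 (SE 1.06) and Klrk1 by 3.48 (SE 0.75). The 8 genes of that list summed to 412 to 780.2 CPM in CD8 CTRL and 178 to 637 CPM in CD4 CTRL.

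Most lists of other cell types had negative medians in the same comparison of CD8 with CD4 libraries. In the CTRL libraries, 5 of 6 epithelial genes had a negative value (median -2.06, 2 called), as had 7 of 7 fibroblast and endothelial genes (median -1.50, 1 called) and 6 of 6 neutrophil genes (median -0.9997, 1 called). None was called among the B cell genes, with 6 of 6 negative (median -0.79), the macrophage and monocyte genes, with 7 of 8 (median -0.55), or the dendritic cell genes, with 5 of 6 (median -0.62), while 4 of 5 erythroid genes were positive. The neutrophil list summed to 285 to 550.4 CPM in CD8 CTRL and 662 to 932 CPM in CD4 CTRL, and the fibroblast and endothelial list to 348 to 725 CPM in CD8 CTRL and 492 to 4142 CPM in CD4 CTRL. In the C269 libraries the medians were -1.16 for the epithelial list (1 called), -0.48 for the fibroblast and endothelial list and -0.72 for the neutrophil list. The part of these cells, and of the NK cell genes, in the differences of the 10 genes was not tested.

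None of the 10 genes passed the threshold for C269 against CTRL in either T cell population. In CD8 libraries 0 of 10 were called, where 0.00914% of tested genes were (1 of 10943). Log2 fold changes, C269 over CTRL, ran from -0.23 for Cd8b1 to 0.21 for Trbc1, with Cd4 apart at 0.61 (SE 0.67). Without library 27 the Cd4 value was -0.16. Trbc1 had an adjusted p of 0.804 by edgeR's quasi-likelihood test. The 95% interval was -0.26 to 0.29 for Cd3e, -0.11 to 0.44 for Trac and -0.040 to 0.46 for Trbc1, which give the sizes of change that these libraries do not separate from 0. In CD4 libraries 0 of 10 were called, where 0% of tested genes were (0 of 12393; 697 at an unadjusted p under 0.05, and 17 called by DESeq2). Cd8a had 0.74 (SE 0.33) and Cd8b1 0.62 (SE 0.25), with adjusted p 0.882 for both by edgeR's quasi-likelihood test. Their 95% intervals lay above 0, and 2 of the 10 genes had an unadjusted p under 0.05. The other 8 ran from -0.30 for Trbc2 to 0.26 for Cd3e. Without library 19, Cd8a had 0.38, and without library 14 Trbc2 had -0.53. The difference between the 2 effects, CD8 minus CD4, was called for 0 of 10 genes, where 0% of tested genes were (0 of 14731; 566 at an unadjusted p under 0.05, and 19 by DESeq2). It ran from -0.87 (SE 0.65) for Cd8b1 to 0.58 (SE 0.83) for Cd4.

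**Figure D3:**
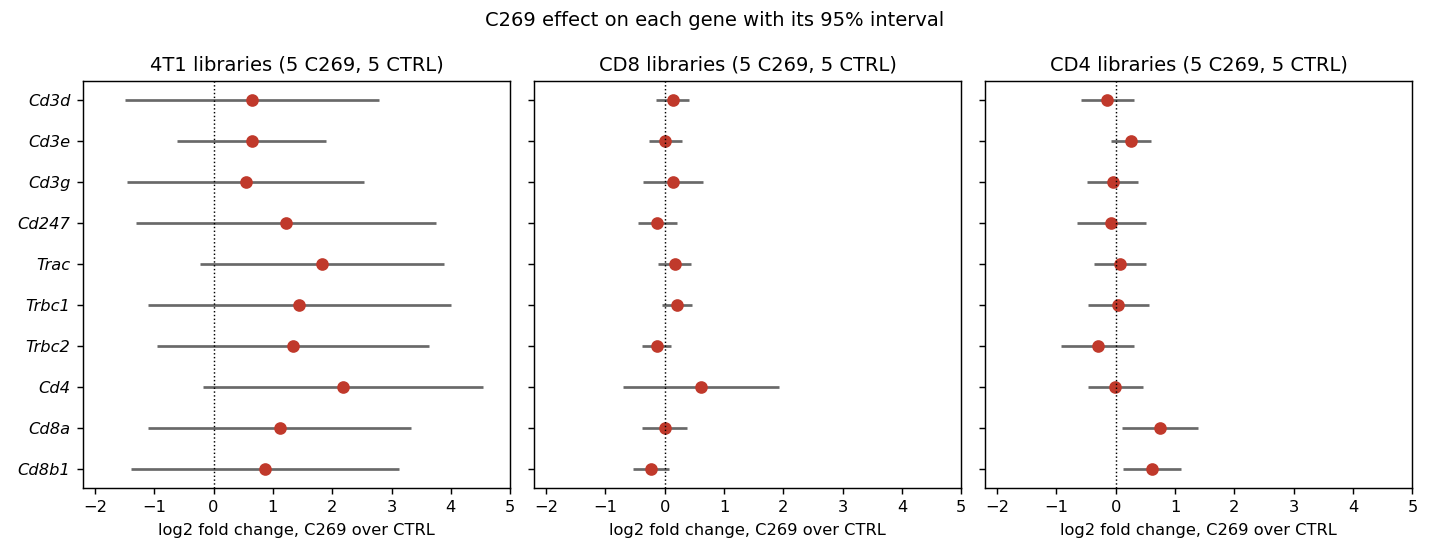
Log2 fold change of each gene, C269 over CTRL, in 4T1, CD8 and CD4 libraries, from edgeR's quasi-likelihood fit of the 10 libraries of each population; lines are 95% intervals and the dotted line marks no change. Intervals are narrow in the T cell libraries, except for Cd4 in CD8, and wide in the 4T1 libraries, where all 10 values are above 0. In CD4 libraries the intervals of Cd8a and Cd8b1 lie above 0, but neither gene passed after adjustment.

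Other T cell genes were not called under C269 either. Of the 20 receptor-proximal signalling genes, none was called in CD8 libraries (4 with a positive value, median -0.18, against 0.0097 over all tested genes) or in CD4 libraries (8 positive, median -0.054). Skap1, a T cell adaptor, had -0.47 (SE 0.18) and Lcp2, the adaptor SLP-76, 0.44 (SE 0.18) in CD8 libraries. Gata3, a T cell transcription factor, had 0.79 (SE 0.16) in CD4 libraries, adjusted p 0.547 by edgeR's quasi-likelihood test, the smallest p of its list. Il7r, the interleukin-7 receptor, had 0.71 (SE 0.21) there, adjusted p 0.743. The 6 B cell genes summed to 182 to 895 CPM in CD8 C269 and 122 to 196 CPM in CD8 CTRL, and to 259 to 594 CPM in CD4 C269 and 75.5 to 388 CPM in CD4 CTRL, and their part in the values of the 10 genes was not tested. In the authors' deposited table, the adjusted p of the 10 genes was also at least 0.762 in CD8 and at least 0.779 in CD4 libraries.

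In the 4T1 libraries, labelled as sorted tumour cells, transcripts of all 10 genes were present at low and very uneven levels. Cd3e had 29.3, 20.1, 36.7, 9.88 and 6.76 CPM in libraries 6 to 10 (C269) and 22.7, 7.24, 19.3, 2.51 and 13.2 CPM in libraries 1 to 5 (CTRL). Trbc2 had 73.1, 87.3, 151, 10.6 and 21.4 CPM under C269 and 56.7, 3.83, 64.5, 0 and 3.46 CPM under CTRL, and Trac had 28.2, 15.2, 39.2, 9.20 and 6.57 CPM under C269 and 9.41, 4.68, 12.5, 0 and 0 CPM under CTRL. Libraries 6, 7 and 8 of C269 and libraries 1 and 3 of CTRL were the 5 highest for each of these, so each treatment held high and low libraries and the groups overlapped for all 10 genes. The other chains had ranges of 5.22 to 55.8 CPM under C269 and 0 to 38.7 CPM under CTRL for Cd3d, 2.92 to 31.1 and 0 to 25.98 CPM for Cd3g, 0.449 to 35.0 and 0 to 14.1 CPM for Cd247, and 3.09 to 116 and 0 to 43.5 CPM for Trbc1. Coreceptor counts were few: Cd4 had 1, 13, 49, 12 and 15 reads in the C269 libraries and 6, 0, 11, 0 and 0 in the CTRL libraries. Cd8a had 28, 17, 12, 18 and 16 reads under C269 and 16, 0, 23, 0 and 0 under CTRL, and Cd8b1 had 31, 16, 14, 3 and 1 reads under C269 and 12, 7, 12, 0 and 0 under CTRL. Libraries 4 and 5 of CTRL had no count for any coreceptor, and a count of 0 allows up to 0.753 and 1.04 CPM there.

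The 4T1 CTRL libraries were below both T cell populations for every gene. The compared libraries were isolated as T cells, so lower levels of T cell genes in 4T1 check the labels and are not a separate finding. All 10 were called lower against CD4 CTRL, where 5.89% of tested genes were called, 2.15% higher and 3.75% lower (316 higher and 552 lower, but 518 higher and 457 lower with DESeq2 size factors), and all 10 lower against CD8 CTRL, where 32.1% were called and 14.6% were lower. Against CD4 CTRL, Trac had -6.42 (SE 0.68) and Cd3e -3.65 (SE 0.42), and against CD8 CTRL, Trac had -7.19 (SE 0.70) and Cd3e -4.93 (SE 0.44). Cd8a had -2.82 (SE 0.56) against CD4 CTRL, the value nearest to 0, and with the 2 groups alone in the fit its adjusted p was 0.0819, the one call of the 10 that was lost in a fit where 8.38% of tested genes were called. The means of the 4T1 CTRL libraries were 7.32% of the CD4 CTRL mean for Cd3e, 1.05% for Trac, 6.60% for Trbc1 and 3.08% for Trbc2. Against the CD8 CTRL mean they were 3.17% for Cd3e and 0.641% for Trac. The mean levels were thus lower by different ratios, with Trac the furthest down of these 4. These rest in part on library 3: without it the percentages of the CD4 CTRL mean were 6.44% for Cd3e, 0.691% for Trac, 3.77% for Trbc1 and 1.92% for Trbc2, and that of the CD8 CTRL mean was 0.424% for Trac. Of the 20 receptor-proximal signalling genes, 14 fell past the threshold against CD4 CTRL and 18 against CD8 CTRL, among them Cd5 with -7.07 (SE 0.56) and Cd6 with -6.54 (SE 0.58) against CD4 CTRL, both surface regulators of receptor signalling.

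Constant regions of the gamma-delta receptor, an alternative to the alpha-beta receptor built on the same CD3 chains, had other levels than Trac in these libraries. Trdc, the delta constant region, had 46.3, 47.1, 104, 2.69 and 1.93 CPM in 4T1 C269 libraries and 63.9, 4.68, 70.1, 0 and 2.08 CPM in 4T1 CTRL libraries. It had 3.73 to 21.9 CPM in CD8 C269, 1.15 to 7.92 in CD8 CTRL, 4.58 to 11.2 in CD4 C269 and 2.52 to 23.7 in CD4 CTRL. Trdc has 3865 exon bases and Trac 935, so the genes are compared per kilobase of exon, again assuming even coverage. Trdc had 11.97, 12.2, 26.99, 0.697 and 0.500 CPM per kilobase in 4T1 C269 libraries, beside 30.2, 16.2, 41.9, 9.84 and 7.02 for Trac, and lay below Trac in all 5. In 4T1 CTRL libraries it had 16.5, 1.21, 18.1, 0 and 0.538 CPM per kilobase, beside 10.1, 5.01, 13.4, 0 and 0 for Trac, so that Trdc was above Trac in libraries 1, 3 and 5, the last on 6 Trdc counts, and below it in library 2, while library 4 had neither gene. In shares of raw counts, which favour the longer gene, Trdc made up 62.1, 75.7, 72.7, 22.6 and 22.7% of Trdc and Trac counts in 4T1 C269, and 87.2% in library 1 and 84.8% in library 3 of 4T1 CTRL. The same share was 0.467 to 1.92% in CD8 C269, 0.138 to 0.979% in CD8 CTRL, 0.672 to 1.80% in CD4 C269 and 0.398 to 4.28% in CD4 CTRL. Against CD4 CTRL, Trdc had 1.89 (SE 0.99) in 4T1 CTRL, adjusted p 0.265 by edgeR's quasi-likelihood test, beside -6.42 (SE 0.68) for Trac. The 4 gamma and delta genes were chosen after the symbols in the tables had been seen, and reads of the gamma constant regions, which resemble each other, may have been split between them. Trgc2, a gamma constant region, was higher in CD8 than in CD4 libraries, by 3.69 (SE 0.73) in CTRL and 3.07 (SE 0.71) in C269 libraries, the 1 call among the 4 gamma and delta genes in each.

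Relative to the CD3 chains, Trac was lower in 4T1 than in T cell libraries, while Trbc1 and Trbc2 overlapped them. Per 100 counts of Cd3d, Cd3e and Cd3g together, Trac had 32.5, 22.9, 31.7, 44.6 and 35.1 counts in 4T1 C269 and 12.02, 22, 16.05, 0 and 0 counts in 4T1 CTRL, in the order of the library numbers. It had 60.6 to 71.8 in CD8 C269, 58.4 to 69.2 in CD8 CTRL, 76.6 to 94.6 in CD4 C269 and 67.6 to 88.5 in CD4 CTRL. All 4T1 libraries lay below all T cell libraries. Within 4T1 the C269 libraries lay above the CTRL ones, at the closest by 22.9 in library 7 over 22 in library 2. Library 4 rested on 13, library 2 on 50 and library 5 on 53 CD3 counts. Library 2 had only 11 Trac counts, so the closest margin rests on few counts. The 2 highest C269 values were those of libraries 9 and 10, which stood apart. How often other genes separate in this way relative to the CD3 chains was not tested. Trbc2 had 84.2, 132, 122, 51.1 and 114 counts per 100 in 4T1 C269 and 72.4, 18, 82.5, 0 and 18.9 in 4T1 CTRL, against 79.2 to 96.6 in CD8 C269, 96.8 to 114 in CD8 CTRL, 80.5 to 122 in CD4 C269 and 71.1 to 155 in CD4 CTRL. Libraries 6, 7, 8 and 10 of 4T1 C269 and 1 and 3 of 4T1 CTRL were thus within or above the range of at least 1 T cell group. Trbc1 had 66.5, 74.6, 93.7, 34.8 and 16.5 in 4T1 C269 and 43.4, 0, 55.6, 7.69 and 13.2 in 4T1 CTRL, against 28.3 to 45.1 in CD8 C269, 26.6 to 37.6 in CD8 CTRL, 32.8 to 44.8 in CD4 C269 and 27.7 to 42.7 in CD4 CTRL. Libraries 6, 7 and 8 of 4T1 C269 and library 3 of 4T1 CTRL lay above every T cell library for it. Among the CD3 chains themselves, Cd3d made up 47.9 to 59.5% in CD8 C269, 46.4 to 54.7% in CD8 CTRL, 39.1 to 50.02% in CD4 C269 and 45.7 to 52.9% in CD4 CTRL, so the groups overlapped. In the 4T1 CTRL libraries it ranged over 0 to 58.0%, and library 5 had no Cd3d count beside 38 Cd3e counts.

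The 4T1 libraries that were highest for Cd3e, Trac and Trbc2, 6, 7 and 8 of C269 and 1 and 3 of CTRL, were also the highest for the B cell list. Its 6 genes summed to 2236, 3338, 3507, 160.1 and 134 CPM in 4T1 C269 and 1454, 119.7, 1479, 82.0 and 25.97 CPM in 4T1 CTRL libraries. The erythroid list of 5 genes summed to 38125, 11503, 8999, 85.3 and 81.5 CPM in 4T1 C269 and 25073, 1499, 26840.2, 182 and 714 CPM in 4T1 CTRL. The part of these cells in the T cell receptor levels was not tested.

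**Figure D4:**
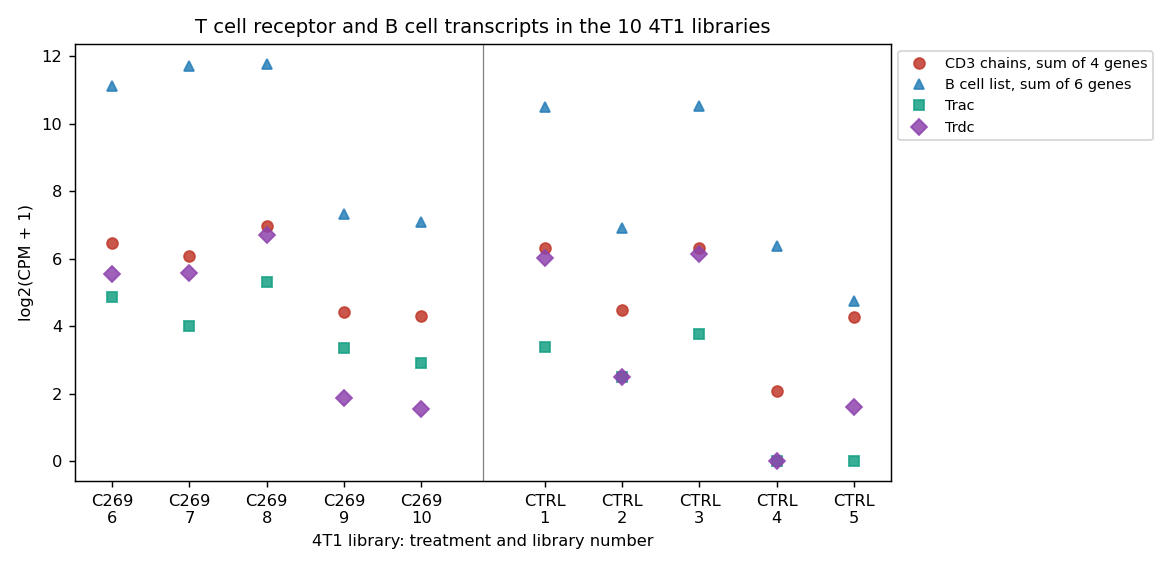
Levels in the 10 4T1 libraries, as log2(CPM + 1), with C269 libraries on the left and CTRL libraries on the right of the line: the summed CD3 chains (Cd3d, Cd3e and Cd3g without Cd247, fewer genes than the key of the figure states), the summed B cell list, Trac and Trdc. Libraries 6, 7 and 8 (C269) and 1 and 3 (CTRL) are the 5 highest for all of them. These levels are not corrected for gene length: Trdc is plotted above Trac in those 5, but per kilobase of exon it was above Trac in libraries 1 and 3 and below it in 6, 7 and 8.

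C269 against CTRL in the 4T1 libraries called 0 of the 10 genes, where 0% of tested genes were called (0 of 12875; 1557 at an unadjusted p under 0.05, and 998 called by DESeq2, none of them among the 10). All 10 had a positive log2 fold change, from 0.54 (SE 1.02) for Cd3g to 2.18 (SE 1.20) for Cd4, with a median of 1.17 against 0.041 over all tested genes. The 95% interval was -0.61 to 1.89 for Cd3e, -0.24 to 3.89 for Trac and -0.18 to 4.54 for Cd4. Without libraries 9 and 10 the value was 1.14 for Cd3e, 2.31 for Trac and 2.44 for Cd4, with a median of 1.71 over the 10, still without a call. With 1 library left out in turn the median ran over 0.84 to 1.97, the highest without library 3. Cd4 ran over 1.33 to 3.29 (lowest without library 8, highest without library 3), Trbc1 over 0.90 to 2.26 and Cd3g over 0.20 to 1.30, each with the same 2 libraries at the ends. Each of the 4 gamma and delta genes was also positive, with a median of 1.74 (2.14 without libraries 9 and 10), and Trgc2 had 1.81 (SE 1.00), or 2.12 without them. In the B cell list 5 of 6 were positive, with Ighm, the IgM heavy chain, at 1.96 (SE 1.30), and without libraries 9 and 10 all 6 were, with Ighm at 2.66; none passed in either. In the counts of the CD8 chains, Cd8b1 made up 14.3% (95% exact binomial interval 3.05% to 36.3%, 3 of 21 counts) in library 9 and 5.88% (95% exact binomial interval 0.149% to 28.7%, 1 of 17 counts) in library 10, and 52.5% (95% exact binomial interval 39.1% to 65.7%, 31 of 59 counts) in library 6.

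Across all 30 libraries, the genes whose log2(CPM + 1) followed Cd3e most closely, among 14731 compared, were Ubash3a (Pearson's r 0.979), Lck (0.979), Zap70 (0.978) and, themselves among the 10, Trac (0.972) and Cd3g (0.971). For Cd4 they were Foxp3 (0.929), Cd40lg (0.922), Ccr4 (0.898), Ikzf2 (0.894) and Gpr83 (0.882). For Cd8a they were Cd8b1 (0.975), Gzmk (0.945), Slc17a6 (0.944), Rnf138 (0.938) and Klrh1 (0.932). These values describe 30 libraries that fall into 3 populations, so points of 1 population are not independent. They include the differences between the populations. With group means taken off, Cd3e and Cd3g had r 0.15 in CD8, 0.49 in CD4 and 0.92 in 4T1 libraries (n = 10 each). Cd3e and Trac had 0.44, 0.86 and 0.76 in the same order, and Cd8a and Cd8b1 0.70, 0.28 and 0.52.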

How the data were processed

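RNA extraction used the SPLIT kit (Lexogen), per the labels' protocols, and reads were counted with featureCounts after FastQC and compared with DESeq2, per the submitters' processing notes, which name mm9. The aligner, strand setting and tool versions are not given in these sources. The files' gene starts equalled those of GENCODE M21 on GRCm38 for 99.6% of matched identifiers, so GRCm38 coordinates and exon lengths were used. The authors deposited whole-number counts per gene and library, without normalization; 7 ribosomal RNA features (3.05% of counts) were left out. The log2 fold changes in the authors' deposited tables are CTRL over C269, and of these tables the text prints the deposited p-values adjusted for multiple tests. The tables' mean level is a signal that the authors computed and was not used. Library columns carry numbers only, and each was placed in a group because the counts in the deposited condition columns equal the sum of exactly 1 set of 5 libraries out of 252 for every gene, so a library's title is unknown.

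Levels are CPM, with no smoothing. edgeR 4.0.16 (R 4.3.3) tested counts with its quasi-likelihood test, TMM scaling, its default filter on low counts, and Benjamini-Hochberg adjustment at 0.05 over all tested genes. Treatments were compared within a population's 10 libraries, and populations in 1 fit of 30. All 10 genes passed the filter in each comparison. Errors of fold changes are standard errors from the F statistic, and shares carry exact (Clopper-Pearson) intervals. These, and the limit of 3 counts for a count of 0, cover counting error only. The alternatives were DESeq2 1.42.0, other scaling, no filter, ribosomal RNA kept, other sets of libraries, and each library left out in turn. The marker lists without libraries 9 and 10, and means compared with each library left out, were added after seeing the data. The genes and lists were chosen with earlier results of these data known; other genes were named where they passed the threshold with the smallest p, at most 4 a list, or for the smallest p otherwise.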

Additional observations from a re-analysis of the deposited data

Results flagged for a closer look

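Of 76 groups of 5 values compared within a group, 9 held 1 library whose gap to the nearest other library was large for the group's range. By chance about 1 in 20 independent groups would be flagged. These groups share libraries and are not independent, so the number flagged is not read as an excess. In CD4 CTRL, library 14 was the lowest for Trbc1 at 106.0 CPM (the others 264 to 301 CPM), for Trbc2 at 273 CPM (937 to 1013 CPM) and for Cd4 at 71.3 CPM (172 to 192 CPM). The same library had the highest macrophage and monocyte sum of the T cell libraries, 3772 CPM, and the highest NK cell sum among CD4 CTRL libraries, 637 CPM. Their part in its low values was not tested.

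In CD8 C269, library 27 was the highest for Cd4 at 27.9 CPM (5.22 to 6.73 CPM) and for the share of Cd4 among coreceptor counts at 2.28% (0.609 to 0.862%). It also had the highest Cd3g, at 452 CPM, the highest Cd8a, at 685 CPM, and the highest NK cell sum of the group, 1150.3 CPM. Without it, the log2 fold change of Cd4 in CD8 libraries was -0.16, against 0.61 with it, and neither was called.

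In CD4 C269, library 19 was the highest for Cd8a at 50.6 CPM (16.2 to 24.2 CPM), and its Cd8b1 share of the CD8 chains was the lowest at 37.3% (54.9 to 61.8%). Its Cd8b1 level, 30.2 CPM, lay within the range of the group.

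In 4T1 C269, library 8 was the highest for Cd4 at 11.999 CPM (0.226 to 2.90 CPM), and library 10 had the lowest Trbc1 share of beta constant region counts at 12.6% (36.1 to 44.1%). Library 10 rested on 127 Trbc1 and Trbc2 counts together.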

How the results depend on the processing

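No paired analysis was possible because the library columns do not carry the replicate letters of the sample titles. None of the 10 genes was called for C269 against CTRL, in any population or in the difference between CD8 and CD4, under any setting run. Against CD4 and CD8 CTRL, each of the 10 was lower in 4T1 CTRL libraries under every setting, and 1 call, Cd8a against CD4, was lost with only the compared groups in the fit (log2 -2.87). Counts over all genes moved more. With DESeq2 they were 998 for C269 in 4T1, 18 in CD8, 17 in CD4, 19 for the difference of the C269 effect, 1582 for CD8 against CD4 in CTRL libraries, 1833 in C269 libraries and 1697 for 4T1 against CD4. With no filter on low counts they were 162 for C269 in CD8 and 83 in CD4. With all 30 libraries in 1 fit they were 606 in 4T1 and 0 in CD8. With only the compared groups, CD8 against CD4 in CTRL libraries gave 2823, and without libraries 9 and 10, 4T1 against CD4 gave 1570. DESeq2 size factors moved the median of all genes by 0.12 log2 for 4T1 against CD4 and 0.13 against CD8, and changed the split of calls for 4T1 against CD4 to 518 higher and 457 lower, against 316 higher and 552 lower with TMM.

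Leaving out 1 library in turn gave 0 to 10 calls for C269 in CD4 (10 without library 15), 0 to 1 in CD8, 0 to 1 for the difference of the C269 effect, 564 to 873 for CD8 against CD4 in CTRL libraries (564 without library 14 and 616 without library 22) and 426 to 941 for 4T1 against CD4 (569, 426, 477 and 435 without libraries 11, 12, 13 and 15). Values near 0 changed sign: Cd3e in CD8 was -0.028 with no filter and -0.020 in the fit of 30, and Cd8a in CD8 was 0.0039 with DESeq2 and 0.0052 with its size factors. With 1 library left out, values in CD4 ran over -0.30 to 0.047 for Cd247, -0.21 to 0.082 for Cd3g, -0.21 to 0.090 for Cd4, -0.10 to 0.16 for Trac and -0.16 to 0.14 for Trbc1. In CD8 they ran over -0.063 to 0.070 for Cd3e, -0.14 to 0.30 for Cd3g, -0.16 to 0.97 for Cd4 and -0.18 to 0.10 for Cd8a. For the difference of the effects they ran over -0.20 to 0.15 for Cd247, -0.11 to 0.33 for Cd3g, -0.17 to 0.93 for Cd4 and -0.017 to 0.25 for Trac. The cause of these changes was not tested. Depth limits the coreceptor shares in 4T1 libraries, which held at most 75 coreceptor counts each. All 120 mean levels under other library totals stayed within 1 SD.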

Other observations

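For C269 against CTRL in the 4T1 libraries, 9 of the 12 T lineage transcription factors were positive (median 0.43 log2, against 0.041 over all tested genes) and none was called. Without libraries 9 and 10, which are 2 of the 5 C269 libraries, 11 were positive (median 0.92). Bcl11b, a factor needed for T lineage commitment, had 2.62 (SE 0.95), adjusted p 0.359 by edgeR's quasi-likelihood test, and Zbtb7b had 1.07 (SE 0.46); without those libraries they had 1.89 and 0.20. Of the 9 T cell surface genes 7 were positive, with Il7r at -1.08 (SE 0.74) and Cd96, a receptor of T and NK cells, at 1.68 (SE 1.21), and without those libraries 8 were, with Il7r at -0.39 and Cd96 at 2.20. The neutrophil list had 6 of 6 negative values (median -0.88), and the 6 epithelial genes were all positive (median 3.58), and none of either list was called. Without libraries 9 and 10 the neutrophil list had 4 of 6 negative values (median -0.15) and the epithelial list again 6 of 6 positive (median 1.60), with no call.

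Against CD4 CTRL libraries, 4T1 CTRL libraries were called lower for 5 of the 12 T lineage factors and for 5 of the 9 T cell surface genes, with none higher. Of all tested genes, 3.75% were called lower and 2.15% higher. The lower T cell genes follow from the isolation and check the labels. Bcl11b had -5.81 (SE 0.66) and Cd28, the costimulatory receptor, -4.90 (SE 0.74). In the same comparison no NK cell gene of 7 tested and no B cell gene of 6 was called, and all of them were positive, with medians of 1.60 and 2.64.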
